A study of Mus musculus with 3 samples.

Results

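The TET dioxygenases Tet1, Tet2 and Tet3, the CXXC-domain genes Cxxc4 and Cxxc5, and the O-GlcNAc transferase gene Ogt were followed on arrays of mouse embryonic stem (ES) cells. All 6 genes were found by name, accession or older name, on 13 of the 41174 probes that are not controls. The files call Tet1 by its older name Cxxc6, Tet2 by E130014J05Rik and Tet3 by D230004J03Rik or B430006D22Rik. The probes carry 27670 genes or unassigned names in all. RNA was measured on 1-colour (Cy3) Agilent oligonucleotide arrays, with 1 array per sample. The samples were 2 Tet1 knockout (KO) samples, KO 4 and KO 22, and 1 Tet1 wild type (WT) sample. Per the labels all 3 came from V6.5, a mouse ES cell line of mixed 129 and C57BL6 background, grown with the cytokine LIF on irradiated feeder cells and preplated before RNA was taken. The labels give neither the deleted part of Tet1 nor whether KO 4 and KO 22 are separate clones or cultures, although the series' own description counts mice. P-values therefore measure only how far these samples spread, which may be technical, and no spread of WT could be measured. All 10 listed ES cell markers were well above background on all arrays, and their summed level, in multiples of each array's 75th percentile, was 730.5 on KO 4 and 855.8 on KO 22, against 793.2 on WT. Dppa5a alone gave 64.1% of that sum on KO 4 and 69.3% on KO 22, against 68.0% on WT. Without Dppa5a the sums were 263 on KO 4 and 263 on KO 22, against 254 on WT. Leaving out Klf4, the next brightest, as well turned the order, to 162 on KO 4 and 163 on KO 22, against 178 on WT. Y-linked transcripts were far lower in both KO samples than in WT, and their values stand beside those of the X-linked member Ogt.

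TET enzymes oxidise the methyl group of 5-methylcytosine in DNA to 5-hydroxymethylcytosine and further products, using iron and 2-oxoglutarate. Tet1 and Tet3 have isoforms with a CXXC zinc finger that binds CpG dinucleotides in DNA. Tet2 has none, and the neighbouring gene Cxxc4 (IDAX) encodes a protein with such a finger that can bind Tet2. Cxxc5 encodes a close relative of Cxxc4. Ogt encodes the enzyme that attaches O-linked N-acetylglucosamine to nuclear and cytosolic proteins, and it binds TET proteins. Mouse ES cells are known for Tet1 and Tet2 expression, while Tet3 is known from the oocyte, the zygote and later tissues.

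The bases before the start of each TET gene are shown because CpG is what the CXXC finger binds and what TET enzymes act on. They are the 250 bases before a transcript start from RefSeq on build GRCm38.p6, written 5′ to 3′ on the gene's strand, with each CG in capitals. The window of Tet1 lies at chr10:62887325-62887574, that of Tet2 at chr3:133544391-133544640 and that of Tet3 at chr6:83441679-83441928, all on the minus strand. The counts below hold for the transcript start used, and any other start of these genes is not shown.
Tet1: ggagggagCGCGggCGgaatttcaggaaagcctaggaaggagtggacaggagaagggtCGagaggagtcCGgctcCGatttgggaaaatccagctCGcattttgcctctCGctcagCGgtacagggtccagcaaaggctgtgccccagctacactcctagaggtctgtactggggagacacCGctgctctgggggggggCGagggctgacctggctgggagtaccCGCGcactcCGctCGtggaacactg
Tet2: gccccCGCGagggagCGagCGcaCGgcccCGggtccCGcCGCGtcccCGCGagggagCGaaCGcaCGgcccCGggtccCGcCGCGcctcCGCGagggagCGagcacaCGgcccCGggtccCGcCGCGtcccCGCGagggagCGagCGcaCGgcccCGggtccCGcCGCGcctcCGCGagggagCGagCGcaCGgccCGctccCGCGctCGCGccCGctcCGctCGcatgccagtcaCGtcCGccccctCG
Tet3: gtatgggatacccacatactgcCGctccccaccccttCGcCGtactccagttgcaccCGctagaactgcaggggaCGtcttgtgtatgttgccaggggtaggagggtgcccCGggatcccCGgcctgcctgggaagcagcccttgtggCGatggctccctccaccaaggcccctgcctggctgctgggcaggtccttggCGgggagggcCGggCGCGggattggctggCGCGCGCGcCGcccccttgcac
The letters CG, which read the same on both strands, occur 15 times before Tet1, 51 times before Tet2 and 17 times before Tet3. The median over 32841 such windows of mouse genes is 6. At least 15 are held by 27.3% of these windows, at least 51 by 0.067% and at least 17 by 23.5%. The letters GGGCGG, the GC box, occur once on either strand in each of the 3 windows, as they do at least once in 32.7% of all windows. Part of the matches to CG lie inside that motif. These arrays measured RNA and not methylation, so the sequences show the CpG content only.

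Processed intensity, the background-subtracted brightness of a spot, is given in arbitrary units as each array has it. Arrays differed in brightness, so the 75th percentile of an array's non-control spots (717.7 on KO 4, 644.9 on KO 22 and 623.7 on WT) was subtracted on the log2 scale. Differences are KO minus WT on that scale, and the error after ± is the standard error (SE) from limma, with n = 2 against 1. The scanner software's flag put 10 of the 13 probes well above background on all 3 arrays. The other 3 were above it on none. No spot of the 13 carried an outlier flag, 0 of them lay within 2 rows and columns of a spot at least 8-fold brighter on 1 array alone, and 0 of the non-control spots were saturated. The number of arrays limits the precision.

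**Figure D1:**
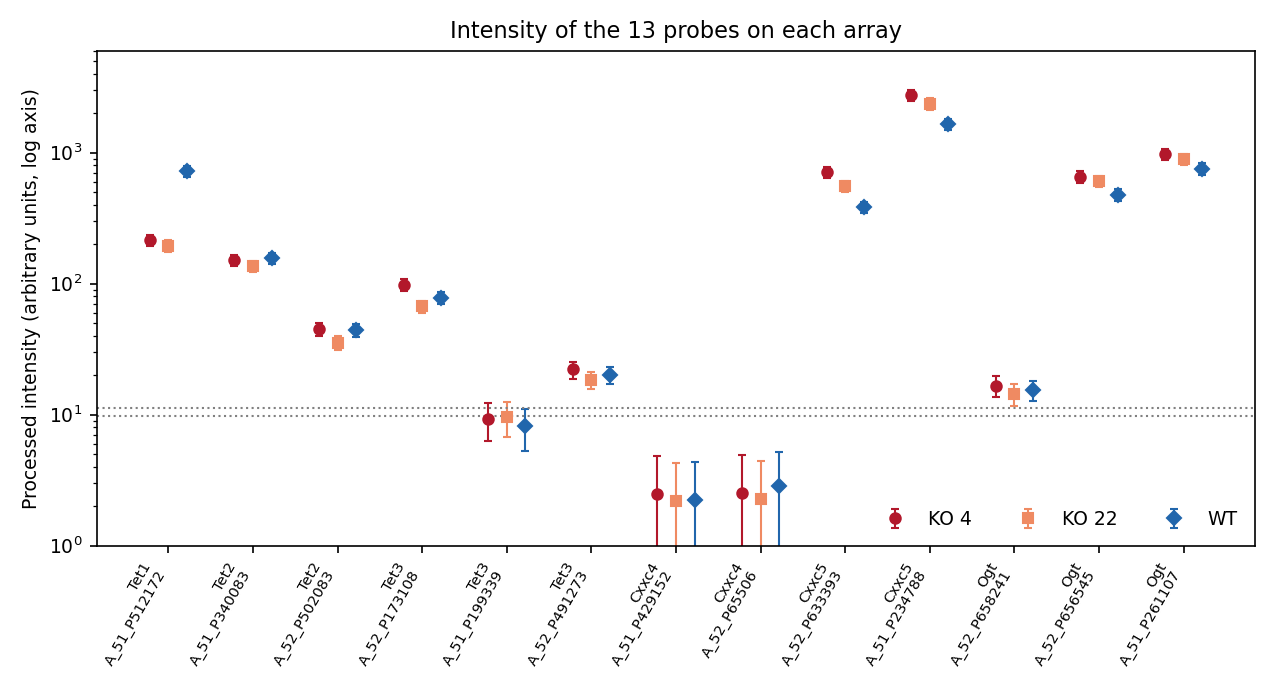
Processed intensity (log axis, arbitrary units) of each of the 13 probes on KO 4, KO 22 and WT, with the scanner software's error of the spot as bars (clipped at 1), and the lowest intensities well above background on the arrays (9.75 to 11.3) as dotted lines. The Tet1 probe reads 214 on KO 4 and 195 on KO 22, against 721 on WT, while both Cxxc4 probes and 1 Tet3 probe lie under the dotted lines on every array.

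Of the 6 genes, 5 could be tested, and limma called 0 of them at an adjusted p below 0.05. Over all 17728 genes tested, 0.355% were called, 6 (0.0338%) higher and 57 (0.322%) lower in KO. At an unadjusted p below 0.05 stood 2 of the 5 genes, Tet1 and Cxxc5, beside 28.2% of all genes. With an intensity trend in the variance model limma called the same 2, Tet1 and Cxxc5, beside 18.8% of all genes. Tet1 was the 1 gene of the 5 at least 2-fold from WT on both KO arrays, as were 3.01% of all genes, and 1.56% of all genes were at least 2-fold lower on both. Tet1 and Tet2 lay below WT on both KO arrays and Cxxc5 and Ogt above it, beside 45.5% of all genes below on both and 38.0% above on both.

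Tet1, the gene named in the knockout label, had a lower signal in both KO samples. Its 1 probe (A_51_P512172) read 214 on KO 4 and 195 on KO 22, against 721 on WT. On the scaled log2 level these values are -1.75 and -1.72 on the KO arrays, against 0.21 on WT, so the KO arrays lie close together and far below WT. The difference was -1.94 ± 0.09, a 3.85-fold lower level, and it narrowly missed the threshold (limma adjusted p = 0.0531, unadjusted p = 0.000195). The adjusted p ranged from 0.000797 to 0.17 over the alternative settings, and it passed in 6 of the 9 that have a test, as when every probe was fitted on its own (adjusted p = 0.0477). Of the 17728 genes, 0.57% lay as low on both KO arrays.

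The signal left in the KO samples was not at background. The KO intensities of the Tet1 probe were 18.9-fold on KO 4 and 19.8-fold on KO 22 above the lowest intensity well above background on the same array, against 73.9-fold on WT. The probe lies on chromosome 10 at chr10:62332082-62332141, minus strand, on build mm7, the build of the array design. The labels do not place it relative to the deleted part of Tet1, so whether this probe checks the KO labels is not known.

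Measurement error of a single spot was small beside this difference. The scanner software's own spot errors give an error of 0.18 for the Tet1 difference. They also give 0.18 for the brightest probes of Tet2, Tet3, Cxxc5 and Ogt. That is above the limma SE of 0.09 for Tet1, Tet2, Cxxc5 and Ogt. The differences of Tet2 (-0.25) and Ogt (0.18) are near the size of this spot error. A second measure came from probes printed on 10 spots each. Among those with an intensity between 100 and 1000, the median SD of log2 intensity over the 10 spots of an array was 0.051 on KO 4 (59 probes), 0.066 on KO 22 (62 probes) and 0.056 on WT (61 probes). Both measure spots of 1 array and not cultures. The SD of KO 4 minus KO 22 over all genes was 0.33, beside a KO 4 minus KO 22 difference of -0.02 for Tet1.

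**Figure D2:**
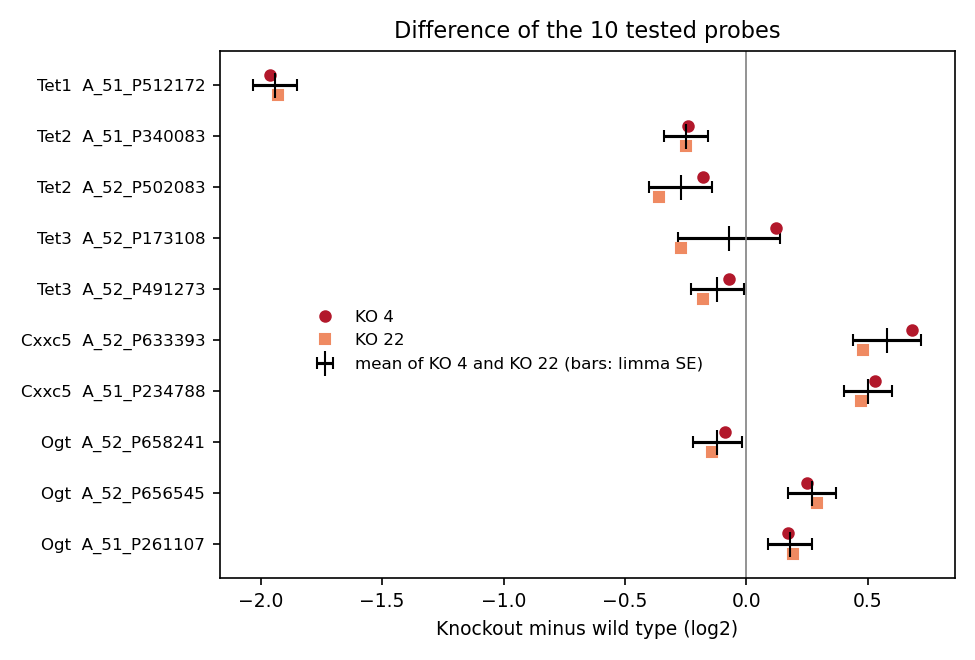
Difference from WT on the log2 scale of the 10 tested probes, with KO 4 and KO 22 as points, their mean as a tick and the limma SE as bars (probe-level fit). Tet1 lies at -1.96 and -1.93, and the other 9 probes lie between -0.36 and 0.68.

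Tet2, the other TET enzyme known from ES cells, lay close to WT. Its first probe (A_51_P340083, chr3:133261322-133261381, minus strand, mm7) read 151 on KO 4 and 136 on KO 22, against 156 on WT. Its second (A_52_P502083, chr3:133263123-133263182, minus strand) had 44.8 on KO 4 and 35.4 on KO 22, against 44.1 on WT. After scaling, both probes were lower on both KO arrays. The first differed by -0.24 on KO 4 and -0.25 on KO 22, and the second by -0.18 and -0.36. The gene's difference was -0.25 ± 0.09 and did not pass (limma adjusted p = 0.205), and 18.5% of all genes lay as low on both KO arrays. The difference of Tet1 minus that of Tet2 was -1.71 on KO 4 and -1.68 on KO 22, a gap with no test of its own. Set against the brightest probes of Tet3, Cxxc5 and Ogt, the gap of Tet1 was -2.08, -2.49 and -2.12 on KO 4, and -1.67, -2.40 and -2.12 on KO 22.

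Tet3, the remaining enzyme, had no direction shared by both KO samples on its brightest probe. Its brightest probe (A_52_P173108, chr6:83388140-83388199, minus strand, mm7) had 97.7 on KO 4 and 67.1 on KO 22, against 78.0 on WT, so WT lay between the KO samples. The gene's difference was -0.07 ± 0.21 (limma adjusted p = 0.849), from 0.12 on KO 4 and -0.27 on KO 22. A second probe (A_52_P491273, chr6:83428120-83428179, minus strand) read 22.1 on KO 4 and 18.4 on KO 22, against 20.1 on WT. After scaling it lay below WT on both KO arrays, by -0.07 and -0.18, a difference of -0.12 ± 0.11 (limma adjusted p = 0.511 over probes). The last probe (A_51_P199339, chr6:83394108-83394167, minus strand) read 9.30 on KO 4 and 9.59 on KO 22, against 8.13 on WT, and was not well above background on any array.

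Fibroblast markers split the KO samples in the same direction as the brightest Tet3 probe. KO 4 exceeded KO 22 by 0.39 on that probe, where the SD of this difference over all genes was 0.33. The 12 fibroblast markers, listed because the cells grew on feeders, had a median difference from WT of 0.85 on KO 4 and -0.08 on KO 22. All 12 were well above background on all arrays, and their summed level in multiples of each array's 75th percentile was 67.5 on KO 4 and 54.7 on KO 22, against 45.7 on WT. Without the brightest of them, the smooth muscle and fibroblast gene Tagln, the sum was 40.2 on KO 4 and 36.1 on KO 22, against 37.6 on WT, so that KO 22 then stood below WT. The part of these cells in the Tet3 values was not tested. In RNA of whole cultures, fewer cells of a type and less RNA per cell cannot be told apart.

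Cxxc4, the neighbour of Tet2, was not detected. On the mm7 positions in the files, its nearest probe lies 772 kb from those of Tet2 on chromosome 3. The first probe (A_51_P429152, chr3:134035520-134035579, plus strand) read 2.48 on KO 4 and 2.20 on KO 22, against 2.21 on WT, all of them values the scanner software put in place of a dim signal. The second (A_52_P65506, chr3:134052325-134052384, plus strand) read 2.52 on KO 4 and 2.25 on KO 22, against 2.87 on WT, with substitutes on both KO arrays. These lie below the lowest intensities well above background, 11.3 on KO 4, 9.86 on KO 22 and 9.75 on WT, and values at such substitutes have no order. No fold change can be given for Cxxc4.

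Cxxc5, its relative, stood highest above WT of the 5 tested genes. The brighter probe (A_51_P234788, chromosome 18) read 2740 on KO 4 and 2370 on KO 22, against 1650 on WT. The second probe (A_52_P633393) had 711 on KO 4 and 554 on KO 22, against 385 on WT. Both KO arrays exceeded WT on both probes. The differences were 0.53 on KO 4 and 0.47 on KO 22 for the brighter probe, and 0.68 and 0.48 for the other. Cxxc5 differed by 0.50 ± 0.09, 1.41-fold, and did not pass (limma adjusted p = 0.115, unadjusted p = 0.0122), with adjusted p from 0.0138 to 0.175 over the alternatives. Of all genes, 7.71% lay as high on both KO arrays. The 10 ES cell markers had a median difference of -0.08. On both KO arrays 3 of them lay above WT and 6 below, beside 38.0% and 45.5% of all genes. The pluripotency factor genes Pou5f1 and Esrrb differed by -0.47 each and Klf4 by 0.40, none past the threshold (limma adjusted p = 0.117, 0.117 and 0.128). Nanog differed by 0.25 and Sox2 by -0.04 (limma adjusted p = 0.27 and 0.78).

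Markers of other lineages also stood apart from WT. Of 8 trophoblast markers 7 were tested, with a median difference of 0.94, and their summed level was 223.6 on KO 4 and 195.7 on KO 22, against 124.3 on WT. The simple-epithelial keratin genes Krt8 and Krt18 gave 94.5% to 96.3% of these sums, and without them the sum was 8.23 on KO 4 and 8.25 on KO 22, against 6.80 on WT. Of the transcription factor genes, Cdx2, Eomes and Hand1 differed by 0.97, 1.27 and 1.25 and Ascl2 by -0.45, none past the threshold. The 1 untested marker, Elf5, was at background on all arrays. The 8 primitive endoderm markers had a median of -1.03 and their summed level was 0.921 on KO 4 and 0.853 on KO 22, against 2.56 on WT. Of these 8, 1 was called lower, Cubn (-3.46 ± 0.11, limma adjusted p = 0.0347), beside 0.322% of all genes. Foxa2 and Cubn gave 35.2% of the sum on KO 4 and 34.3% on KO 22, against 57.4% on WT. Without Foxa2 and Cubn the sum was 0.596 on KO 4 and 0.561 on KO 22, against 1.09 on WT. The 5 neural markers had a median of -0.67 and their summed level was 6.01 on KO 4 and 5.54 on KO 22, against 9.33 on WT. Nes, an intermediate filament gene, gave 95.9% to 97.4% of the neural sums, and without it the sum was 0.154 on KO 4 and 0.180 on KO 22, against 0.382 on WT. Whether cells of these kinds contribute to the values of Tet1, Tet2, Cxxc5 or Ogt was not tested.

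Ogt, the X-linked partner of the TET proteins, differed little from WT. The probe nearest the highest coordinate (A_51_P261107, chrX:97011161-97011220, plus strand, mm7) had 973 on KO 4 and 889 on KO 22, against 753 on WT. The middle probe (A_52_P656545, chrX:97006678-97009545) had 654 on KO 4 and 607 on KO 22, against 478 on WT. Both were a little higher on both KO arrays. Ogt differed by 0.18 ± 0.09 on the first and did not pass (limma adjusted p = 0.294), and the middle probe by 0.27 ± 0.10 (limma adjusted p = 0.197 over probes). The third probe (A_52_P658241, chrX:96971376-96979667) lies on the other side of the gene and leaned the other way. It read 16.6 on KO 4 and 14.4 on KO 22, against 15.4 on WT, a difference of -0.12 ± 0.10 (limma adjusted p = 0.484 over probes). That is smaller than the error of 0.32 that the scanner software's spot errors give for it. Its signals were 1.46-fold to 1.58-fold above the lowest intensity well above background. The files match the middle probe to a stretch of 2868 bases and the dim one to 8292 bases, against 60 bases for the first.

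Sex-linked transcripts are given beside Ogt because it lies on the X chromosome. The Y-linked genes Ddx3y and Eif2s3y read 2.45 and 17.3 on KO 4 and 2.82 and 19.8 on KO 22, against 190 and 842 on WT. Both fell (limma adjusted p = 0.0347 each), and Ddx3y was not well above background on either KO array. The other 2 listed Y-linked genes, Uty and Kdm5d, were not well above background on any array. The 490 X-linked genes tested had a median difference of -0.04, beside -0.03 over all genes. Both KO samples thus differ from WT in these Y-linked transcripts as well as in the Tet1 label. For Ogt and for every other gene here, these differences between the samples cannot be told apart. The part of the Y-linked difference in the values of any gene was not tested.

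Over the 10 tested probes, 4 lay above WT on both KO arrays and 5 below it, beside 39.9% of all 26546 tested probes above and 43.6% below. The KO samples differed from each other by at most 0.39 on these probes. Both probes of Tet2 lay below WT on both KO arrays and both of Cxxc5 above it. The 3 of Ogt did not share a direction, but the difference of its dim probe was smaller than the spot error.

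The neighbours of Tet1 on chromosome 10 were read to see whether its probe stood alone. Within 500 kb of it, 30 other tested probes of 19 genes or transcripts lay, and 1 passed limma over all probes, beside 0.332% of all probes. That probe is of Srgn, which encodes the proteoglycan serglycin, 318.9 kb toward lower coordinates. It had 227 on KO 4 and 174 on KO 22, against 1970 on WT, and Srgn fell by 3.44 on the log2 scale (SE 0.15, limma adjusted p = 0.0367 over probes). Hkdc1, a hexokinase-domain gene 430.2 kb away, had 137 on KO 4 and 146 on KO 22, against 379 on WT (-1.54 ± 0.15, limma adjusted p = 0.0888 over probes).

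The genes next to Tet1 and the others toward lower coordinates differed by at most 0.61 in either direction. The cell cycle and apoptosis regulator gene Ccar1, 43.3 kb from the Tet1 probe at its nearest, differed by 0.16, 0.25 and 0.45 on its 3 tested probes. A clone transcript 45.7 kb away on the same strand read 17.7 on KO 4 and 11.4 on KO 22, against 14.6 on WT. The RNA helicase genes Ddx50 and Ddx21 differed by 0.14 and 0.24 on 2 probes, and by -0.38 to -0.61 on 3. Kifbp, which encodes a kinesin-binding protein, differed by -0.20, -0.20 and -0.03, the helicase gene Supv3l1 by -0.12, and the retromer gene Vps26a by 0.18. A hexokinase probe, for Hk1, was above background on 1 array alone and differed by 0.34.

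On the side of higher coordinates the differences were mostly above 0. There 10 of 14 probes exceeded WT on both KO arrays and 2 lay below, with a median of 0.38. Toward lower coordinates 7 of 16 exceeded WT on both and 8 lay below, with a median of -0.08. Of all tested probes, 39.9% lay above on both and 43.6% below. The 14 probes are of 10 genes or transcripts and the 16 of 9, so probes of the same gene are not independent. The helicase and nuclease gene Dna2 differed by 0.40, 0.46 and 0.36 on its 3 probes, the splicing factor gene Hnrnph3 by 0.42 and the ubiquitin ligase gene Herc4 by 0.36. The mitochondrial carrier gene Slc25a16 differed by -0.20. Rufy2, Pbld2 and Atoh7 differed by 0.58 on 1 probe, by 0.01 and 0.61, and by -0.79 and 0.47, and 3 of these 5 probes were above background on 1 array alone. No test of the 2 sides against each other was made.

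**Figure D3:**
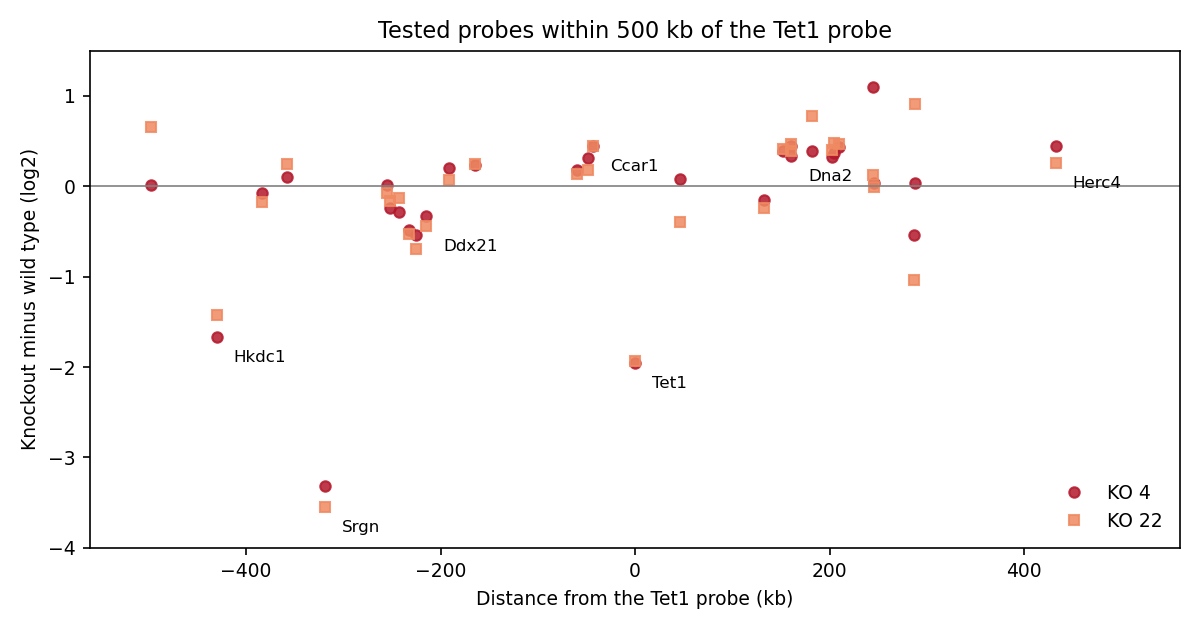
Difference from WT on the log2 scale of every tested probe within 500 kb of the Tet1 probe, plotted by distance from it in kb, for KO 4 and KO 22. Srgn (-3.32 and -3.55), Tet1 (-1.96 and -1.93) and Hkdc1 (-1.67 and -1.42) lie lowest.

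The genes whose pair of differences was nearest to that of Tet1 were found by Euclidean distance over KO 4 minus WT and KO 22 minus WT, with 16403 genes that all 3 arrays put well above background as candidates. The likeness rests on 3 samples. The nearest 5 named genes were Fgf15 at 0.15, Otx2 and Nrros at 0.21, and Cyp4f14 and Krt12 at 0.22, with 1 unnamed transcript as close. Otx2, a homeobox gene, had 56.1 on KO 4 and 43.3 on KO 22, against 185 on WT (-2.03 ± 0.14, limma adjusted p = 0.0767). Fgf15, a growth factor gene, had 72.4 on KO 4 and 57.5 on KO 22, against 224 on WT (-1.92 ± 0.13, limma adjusted p = 0.0744). The differences of Nrros, Cyp4f14 and Krt12 were -2.05, -2.10 and -1.88, with adjusted p of 0.0735, 0.0541 and 0.0973 in limma.

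The wider pathway showed no gene past the threshold. A list of 60 genes in 7 groups held 59 that were tested. Limma, adjusted over all genes, called 0 of them, beside 0.355% of all genes. At an unadjusted p below 0.05 stood 7 (11.9%), and 7 (11.9%) were called with an intensity trend. Both shares are below those of all genes, 28.2% and 18.8%. On both KO arrays, 17 (28.8%) lay above WT and 33 (55.9%) below it, beside 38.0% and 45.5% of all genes, and the median difference was -0.09, beside -0.03 over all genes. No listed gene was at least 2-fold from WT on both arrays, and 1 was at least 1.5-fold, beside 9.57% of all genes. The listed gene that was not tested, Prdm14, had no probe matched to its name.

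The 1 gene at least 1.5-fold away was Slc23a1, a vitamin C transporter gene. It had 167 on KO 4 and 136 on KO 22, against 81.5 on WT, and differed by 0.76 ± 0.11 (limma adjusted p = 0.103). Slc23a1 was called higher with the intensity trend, both normexp settings and the filter on all 3 arrays, while in the other settings it was not. Vitamin C keeps the iron of TET enzymes reduced. In the same group of 8 cofactor genes, with a median of 0.07, Ogdh, which encodes a subunit of the 2-oxoglutarate dehydrogenase, had 833 on KO 4 and 724 on KO 22, against 1010 on WT (-0.51 ± 0.09, limma adjusted p = 0.113), and was called lower with the trend and both normexp settings. D2hgdh, which clears the TET inhibitor 2-hydroxyglutarate, differed by -0.28 ± 0.09, and Idh1, which makes 2-oxoglutarate, by 0.19 ± 0.10.

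Binding partners and recruiters of TET proteins had a median of -0.09 over 15 genes. Sin3a, the corepressor scaffold bound by Tet1, had 2910 on KO 4 and 2700 on KO 22, against 3880 on WT (-0.60 ± 0.09, limma adjusted p = 0.105). The pluripotency-associated gene Nacc1 differed by -0.48 ± 0.09, the RNA-binding protein gene Lin28a by -0.43 ± 0.09 and the zinc-finger gene Sall4 by -0.20 ± 0.09 (limma adjusted p = 0.114, 0.125 and 0.258). These 4 were lower on both KO arrays and none passed. They were named to fill the group by size of difference. Of the 15 genes, 10 lay below WT on both KO arrays and 5 above it, beside 45.5% and 38.0% of all genes. With the intensity trend and with both normexp background settings, Sin3a, Nacc1 and Lin28a were called lower (limma adjusted p of 0.00843 to 0.0306), and Sall4 was not.

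The other CXXC-domain genes and the O-GlcNAc genes lay near WT. Among 8 CXXC-domain genes the median was -0.12, with -0.30 ± 0.11 for the maintenance methyltransferase gene Dnmt1, -0.28 ± 0.13 for the F-box gene Fbxl19, -0.22 ± 0.09 for Cxxc1, a subunit gene of histone methyltransferase complexes, and -0.15 ± 0.09 for the histone methyltransferase gene Kmt2b. Among 10 genes of O-GlcNAc cycling and OGT partners the median was -0.14. Gnpnat1, of the pathway that makes the sugar donor, differed by -0.25 ± 0.09, the Bap1 partner gene Asxl1 by -0.24 ± 0.11, the histone methyltransferase gene Setd1a by -0.22 ± 0.09 and the deubiquitinase gene Bap1 by -0.19 ± 0.09. The adjusted p of these 8 genes ran from 0.203 to 0.359 in limma.

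Genes that remove oxidised methylcytosine had a median of -0.11 over 9. Apex1, the abasic-site endonuclease gene, had 12300 on KO 4 and 10500 on KO 22, against 14100 on WT (-0.44 ± 0.10, limma adjusted p = 0.128), and was called lower with the trend alone. The scaffold gene Xrcc1 differed by -0.27 ± 0.13, Tdg, the glycosylase that excises the final oxidation products, by -0.20 ± 0.09, and the glycosylase gene Neil1 by 0.17 ± 0.09. The Dishevelled genes, whose proteins Cxxc4 and Cxxc5 bind, differed by 0.04 ± 0.09 for Dvl1, -0.20 ± 0.11 for Dvl2 and 0.29 ± 0.15 for Dvl3. In the group of TET protein turnover, with a median of 0.03 over 6, the calpain gene Capn2 had 918 on KO 4 and 700 on KO 22, against 528 on WT (0.48 ± 0.15, limma adjusted p = 0.174), and was called higher with the trend and with normexp without 5 spots far below background. Dcaf1, Ddb1 and Cul4b, of CUL4 ubiquitin ligases, differed by -0.29, -0.13 and 0.10.

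**Figure D4:**
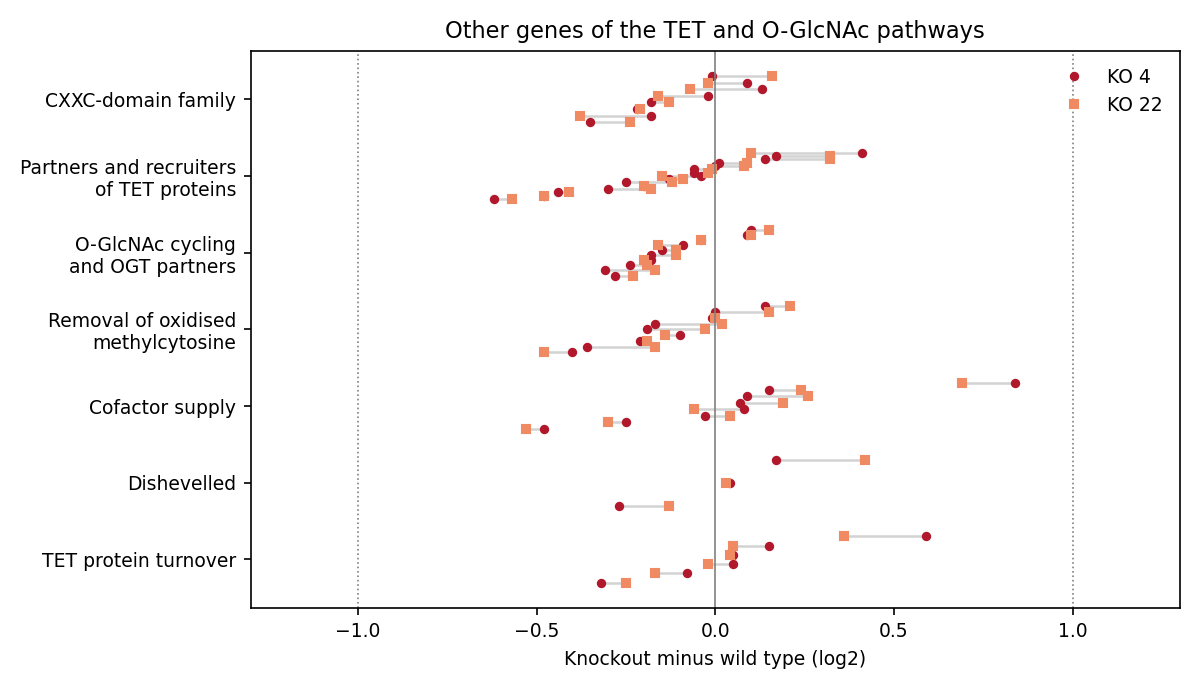
Difference from WT on the log2 scale of the 59 tested genes in the 7 groups, with KO 4 and KO 22 as points joined per gene and dotted lines at a 2-fold difference. No gene passes a dotted line on both arrays, and Slc23a1 at 0.84 and 0.69 lies farthest from 0.

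Whether Tet1 and Cxxc5 passed differed between settings, while their direction was the same in every setting run.

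**Figure D5:**
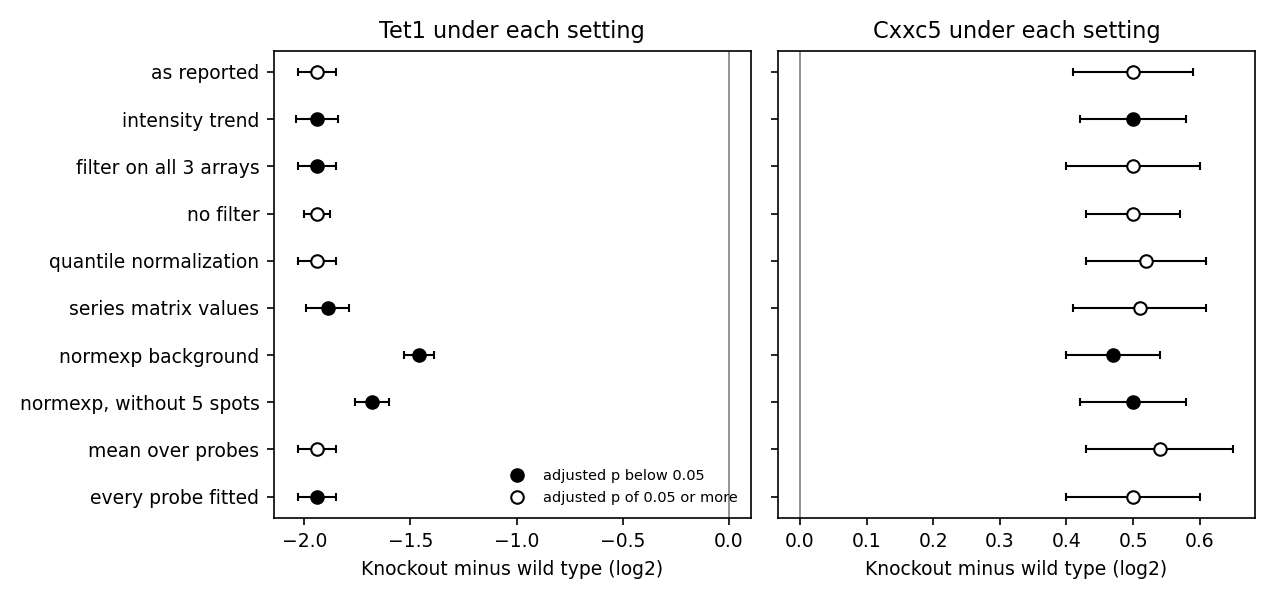
Difference from WT on the log2 scale of Tet1 and Cxxc5, with the limma SE as bars, under each setting with a test. Filled points have an adjusted p below 0.05, in 6 of 9 alternatives for Tet1 (-1.94 to -1.46) and 3 of 9 for Cxxc5 (0.47 to 0.54 over all).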

How the data were processed

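RNA of 3 samples was measured on 1 array each, all on 1 slide, with probe positions on build mm7. The deposited scanner files hold intensity values made with Agilent Feature Extraction 10.1.1.1, background-subtracted and detrended within each array with dim values replaced, per the file headers. The deposited series matrix holds log2 values, each column with a median of 5.52, and r with log2 mean signal was 0.991 to 0.993. Whether their background was corrected is not given. Per the submitters' processing notes limma was used, with no version. From 43379 non-control spots (62.2% to 62.8% well above background), outlier-flagged spots were left out and repeated spots averaged into 41174 probes, 79.5% named through a reference table on GRCm38.p6. Probes well above background on at least 1 array were kept, and the brightest represented its gene. KO and WT were set against each other in limma 3.58.1 (R 4.3.3), with Benjamini-Hochberg adjustment over 17728 genes, or over 26546 probes where stated, with 1 residual degree of freedom per gene and 3.03 after moderation. Of these steps only the limma fit was run on simulated data, with the same spread for every gene and array. It could not check the spread of WT. All 6 members were named with every probe. A pathway gene was named if it passed the test or lay at least 1.5-fold from WT on both KO arrays and above background on all 3, and the largest smaller-of-both differences filled each group up to 4. Neighbours within 500 kb and the 5 genes most like Tet1 were named too, except predicted genes and clones. Members and lists were chosen with earlier results of these data known, and marker sums without their brightest genes were added after seeing the data.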

Additional observations from a re-analysis of the deposited data

How the results depend on the processing

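Tet1 and Cxxc5 kept their direction in all 11 alternatives each, with Tet1 between -1.96 and -1.46 and Cxxc5 between 0.47 and 0.54. Tet1 passed with an intensity trend (-1.94, adjusted p = 0.0011 in limma), a filter on all 3 arrays (-1.94, 0.0294), series matrix values (-1.89, 0.0148), normexp background correction (-1.46, 0.00159), normexp without 5 WT spots over 100 units below their background (-1.68, 0.000797) and every probe fitted (-1.94, 0.0477). Cxxc5 passed with the trend (0.50, 0.0138) and both normexp settings (0.47, 0.0182, and 0.50, 0.0172). Tet2 stayed between -0.26 and -0.14 and Ogt between 0.11 and 0.21, neither called in any, and Tet3 ran from -0.27 without KO 4 to 0.12 without KO 22. Leaving out 1 KO array leaves 1 against 1 and no test. Without KO 4 and without KO 22 Tet1 stood at -1.93 and -1.96, Tet2 at -0.25 and -0.24, Cxxc5 at 0.47 and 0.53 and Ogt at 0.19 and 0.17, and 0 listed pathway genes were at least 2-fold apart in either case. Genes called higher and lower, 6 and 57 as reported, were 1460 and 1875 with the trend. The filter on all 3 arrays gave 496 and 410, no filter 0 and 0, and the series matrix 480 and 498. Normexp gave 1309 and 1383, and normexp without 5 spots 1331 and 1415. With every probe fitted, 14 were called higher and 74 lower, a count of probes and not of genes. Listed pathway genes called, 0 as reported, were 7, 1, 5 and 6 with the trend, the filter on all 3 arrays and both normexp settings. With the trend that was 11.9% of the tested listed genes, beside 18.8% of all genes. For the other settings the counts over all genes are those given above, and the calls are not read as particular to the pathway. Why the calls differ was not tested. No paired analysis was possible because the groups share no replicate number. With 1 WT array, its own spread is not measured and is assumed to equal that of KO.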
